A study of Mus musculus with 36 samples.

Results

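Cytosolic ribosomal proteins were taken as every gene of the table whose symbol is Rpl or Rps with a number and at most a short suffix (a, x, y or l, with or without a further number), together with Rplp0, Rplp1, Rplp2 and Rpsa. Names of pseudogenes ending in -ps and the Rps6k kinases were left out. This gave 86 of 18781 rows, 51 named for the large subunit and 35 for the small subunit. Within them, 81 are called core members here, and the other 5 are the like genes Rpl3l, Rpl22l1, Rpl7l1, Rps4l and Rps27l, each of which has a partner among the core members (Rpl3, Rpl22, Rpl7, Rps4x and Rps27). GENCODE M21 annotates 81 of the 86 as protein-coding. It annotates Rpl32l, Rpl6l, Rps3a2 and Rps3a3 as processed pseudogenes and Rps4l as a transcribed processed pseudogene. The core and the protein-coding members are thus different sets. Rpl32l, Rpl6l, Rps3a2 and Rps3a3 count as core members, and medians over the core include them.

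The values come from bulk RNA sequencing of flash-frozen tissue of wild-type C57BL/6 mice, matched for age and sex, all of which carried MC38 tumors, a transplantable colon cancer line of the same strain. The mice had been given anti-PD1 and anti-CTLA4 antibodies at high dosage (immune checkpoint blockade, ICB) or control IgG. Kidney, lung, liver, skeletal muscle, heart and tumor each have 3 ICB and 3 IgG libraries, 36 in all and 12 groups, with 19005189 to 25512980 reads a library. There are no tumor-free mice among the groups, and the labels do not say whether 1 animal gave 1 library of a group, so every p-value measures only how far these libraries vary, some of which may be technical.

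The ribosome translates messenger RNA. Its large subunit joins amino acids, its small subunit reads the message, and the proteins of both subunits are needed in close to equal numbers. Their messenger RNAs are among the most abundant of any cell and share a run of pyrimidines at the 5′ end, the TOP element, through which growth signals regulate their translation. A few mammalian ribosomal proteins have a second gene that is used in particular tissues, Rpl3l in striated muscle being the best known.

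The annotated start sites were searched for such a run. For 62 members RefSeq (GRCm38.p6) supplied 74 promoters. A C followed by at least 4 pyrimidines lay exactly at the annotated start in 18.9% of these 74 promoters, against 2.51% of all 32851 promoters in the table, and within 5 bases of the start in 43.2% (32 of 74) against 18.3%, so that most of the members' promoters had no run there. Each line below gives 30 bases of the gene's strand, 10 before the annotated start and 20 from it onward, and capitals mark a pyrimidine run that begins with C within 5 bases of the start. Rpl28, Rpl38 and Rps6 were chosen as core members with a run and Rplp0 as a core member without one; Rps27, Rps27l, Rpl22l1 and Rpl3l are the genes on which the results by tissue turn.
Rpl28 (GRCm38.p6 chr7:4792955-4792984, plus strand): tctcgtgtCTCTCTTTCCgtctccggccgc
Rpl38 (GRCm38.p6 chr11:114668570-114668599, plus strand): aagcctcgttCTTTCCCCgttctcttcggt
Rps6 (GRCm38.p6 chr4:86857348-86857377, minus strand): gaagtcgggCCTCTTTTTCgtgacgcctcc
Rplp0 (GRCm38.p6 chr5:115559457-115559486, plus strand): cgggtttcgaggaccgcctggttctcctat
Rps27 (GRCm38.p6 chr3:90213629-90213658, minus strand): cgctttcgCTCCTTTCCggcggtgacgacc
Rps27l (GRCm38.p6 chr9:66946076-66946105, plus strand): cctccccgccgCCTCTatcccggaagttgc
Rpl22l1 (GRCm38.p6 chr3:28805498-28805527, plus strand): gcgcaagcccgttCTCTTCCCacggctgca
Rpl3l (GRCm38.p6 chr17:24727816-24727845, plus strand): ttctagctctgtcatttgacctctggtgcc

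In these windows Rps27, Rps27l and Rpl22l1 carry a run and Rplp0 and Rpl3l have none. Rps27l and Rpl3l each have a further annotated start, and neither of those has a run. Over the whole 300-base window around the start, CCGGAAG, the core of the motif bound by ETS factors, was found on either strand in 35.1% of the member promoters and in 8.86% of all promoters. TATAAA was found in 10.8% of the member promoters, against 13.6% of all. CTTTCC, searched on the sense strand within the 30-base windows, was found in 12.2% against 1.28%, and it overlaps the pyrimidine runs. These matches describe letters in a window and are not measured sites.

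The tissue labels were checked against defining genes of each tissue. FPKM are fragments scaled to the length of the gene and to the library's reads times a normalization factor. The implied factors were 0.53 to 0.65 in liver and 1.45 to 1.60 in lung, so FPKM and percent of reads can order tissues differently. Summed FPKM of 5 or 6 markers each was 10270 to 11580 in heart for heart markers, 58750 to 78430 in liver for liver markers and 19910 to 54690 in lung for lung markers. Kidney tubule markers summed to 11630 to 18360 FPKM in kidney and skeletal muscle markers to 60610 to 90870 in muscle. Proliferation markers summed to 116.5 to 154.6 FPKM in the tumors and to at most 9.66 in any organ. ICB replicate 2 of the tumor had 348.8 FPKM of skeletal muscle markers, against 3.94 to 15.6 in the other 5 tumor libraries. In a bulk sample fewer cells of a kind and less RNA per cell cannot be told apart.

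Levels of the members spanned more than 3 orders of magnitude. By their median over the 36 libraries, the most abundant was Rplp1, a protein of the stalk that recruits elongation factors, at 1134 FPKM. Next came Rps2 at 677, Rpl8 at 634.7, Rpl36 at 566.8 and the stalk base Rplp0 at 551 FPKM. At the other end, Rpl24 had a median of 0.664 FPKM, Rpl3l 1.17, Rpl32l 1.59, Rps3a3 2.12, Rps3a2 2.20 and Rpl13a 6.03 FPKM. Rpl24 and Rpl13a are proteins of every cytosolic ribosome, so their listed levels were compared with sequence sharing. Of the 50-base windows of the longest transcript, 81.7% of those of Rpl24 and 57.4% of those of Rpl13a also occur in transcripts of other genes. Members with a like share were also listed at high levels, such as Rpl36 with 81.1% at 566.8 FPKM. Over the members the median share was 42.8%, 84 of 86 shared at least 1 window, and Rpl3l shared none. How reads that fit several genes were counted is not given in the sources used here, so the level of a single member with many copies is uncertain. The 32 members with at least 50% of windows shared had a median level of 149.6 FPKM and the 9 members with under 10% had 59.8 FPKM.

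The first comparison was between tissues. Most ribosomal protein genes were higher in the tumor than in the mean of the organs, and lower in kidney and heart than in the mean of the other tissues. The median FPKM of the core members was 178.7 to 220.2 in the tumor libraries, 164 to 270.5 in muscle, 132.5 to 305.4 in liver, 101.6 to 199.6 in lung, 96.1 to 129.4 in heart and 84.7 to 167.5 in kidney. All members together took 4.50% to 5.51% of the reads in the tumor, 2.13% to 3.32% in muscle, 1.27% to 2.35% in liver, 2.29% to 4.19% in lung, 1.37% to 1.81% in heart and 1.47% to 2.64% in kidney. The highest tissue mean lay in the tumor for 41 members, in muscle for 29, in liver for 14 and in lung for 2. The lowest lay in kidney for 44, in heart for 32, in lung for 7, in the tumor for 2 and in liver for 1.

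**Figure D1:**
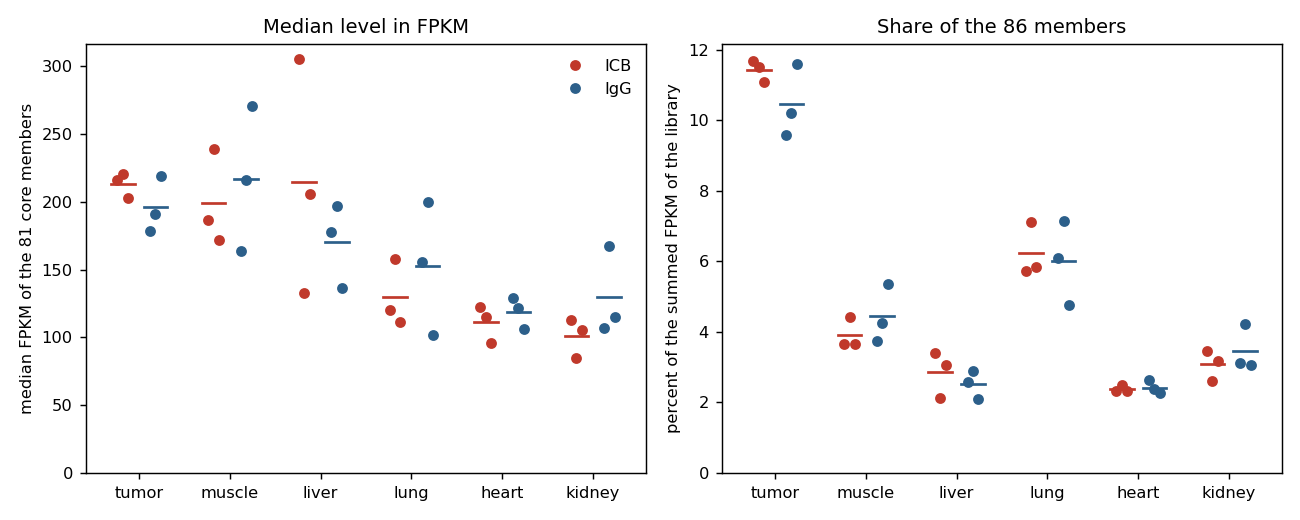
Level of the ribosomal protein genes in each of the 36 libraries, as the median FPKM of the 81 core members (left panel) and as the percent of the library's summed FPKM taken by all 86 members (right panel); points are libraries, bars are means of 3, ICB left of IgG. The tumor libraries lie at 9.59% to 11.7% of the summed FPKM, above every organ library, while in median FPKM the tumor overlaps with muscle, liver and lung.

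Neighbours in this order overlapped for most members. Every tumor library was above every muscle library for 9 members and below for 7 (31% and 27.8% of all 16123 genes). Every muscle library was above every liver library for 1 member and below for 3 (24.6% and 24.3% of all genes). Liver lay wholly above lung for 6 members and wholly below for 0, against 28.6% and 30.9% of all genes. Lung lay above heart for 7 members and below for 2 (32.9% and 25.6% of all genes). Heart lay above kidney for 2 members and below for 5, against 26.5% and 31% of all genes. For 70 to 82 of the 86 members, the libraries of neighbouring tissues thus overlapped. A single shifted library is enough for an overlap, so this does not show that the tissue means are alike. No contrast between neighbours in this order was fitted.

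Each tissue was then set against the mean of the other 5 in 1 limma fit of log2(FPKM + 1), with p-values adjusted over all 16123 genes tested (all 86 members were tested, and a call is an adjusted p under 0.05). In the tumor 62 members were called higher and 4 lower, with a median log2 difference of 0.54, where 38.6% of all genes were called higher and 47.4% lower (median -0.14). In muscle 52 were called higher and 3 lower (31% and 49.8% of all genes), and in liver 40 were called higher and 1 lower (34% and 47.6%). In kidney 2 were called higher and 76 lower (33% and 44.4% of all genes), and in heart 2 and 69 (27.7% and 50.2%). In lung 2 were called higher and 28 lower, and those 28 of 86 lie below the 45.9% of all genes called lower there, with 34.1% called higher. Directions in liver, lung and muscle depended on the scale. On the TPM scale, where each library's FPKM are scaled to 1 total, 83 members were called lower and 2 higher in liver (78.9% and 13.1% of all genes), 80 higher and 3 lower in lung (63.1% and 22%), and 32 lower and 11 higher in muscle (67.9% and 17.3%). The median difference of all genes moved with the scale as well, to 0.71 in the tumor, 0.52 in lung, -0.51 in muscle, -0.53 in heart and -0.76 in liver. The members' medians on the TPM scale were 1.62 in the tumor, 0.65 in lung, -0.78 in liver, -0.09 in muscle, -0.41 in kidney and -1.003 in heart. On both scales the tumor was above and kidney and heart were below. In liver the number of members called higher on the FPKM scale was 20 without ICB replicate 1 and 60 without ICB replicate 2, and it was 10 in the IgG libraries alone. In lung the number called lower was 14 without IgG replicate 3 and 44 without IgG replicate 2. In the IgG libraries alone 30 were called lower in kidney.

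Rps27a, Rpl3, Rpl12, Rplp0 and Rps6 had the 5 largest differences among the members called higher in the tumor. Rplp0, which anchors the stalk, had 968 to 1353 FPKM over the 6 tumor libraries (median 1161), and the organs ranged from 273 FPKM in a lung library to 995 FPKM in a muscle library. The lowest tumor library overlapped with the highest muscle library, and the other 5 lay above every organ library. The difference of the tumor from the mean of the organs was 1.08 ± 0.12 (log2, SE; limma adjusted p = 4.63e-09). Rpl12, which forms the base of the same stalk with Rplp0, stood at 128.0 to 145.7 FPKM in the tumor, with a difference of 1.09 ± 0.15 (adjusted p = 7.90e-08). The stalk proteins Rplp1 and Rplp2, which bind to Rplp0, were not called, at 0.24 ± 0.16 and 0.20 ± 0.16 (adjusted p = 0.159 and 0.224). Rpl3, which reaches into the peptidyl transferase centre, had 229 to 300.6 FPKM in the tumor (1.23 ± 0.10, adjusted p = 4.02e-12). Rps6, the small-subunit protein phosphorylated after growth signals, had 415.0 to 562.9 FPKM (1.03 ± 0.13, adjusted p = 1.85e-08).

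The largest difference of a core member was that of Rps27a, which encodes ubiquitin fused to a protein of the small subunit. Its 6 tumor libraries had 205.9 to 242.1 FPKM. The organs reached from 19.7 FPKM in kidney to 143.6 FPKM in liver, so that no organ library overlapped with a tumor library, and the log2 difference was 1.89 ± 0.23 (adjusted p = 1.19e-08). Rps27a was also the member whose level varied most between libraries of 1 group, with a within-group SD of 0.43 (log2, relative to the other members), against a median of 0.11 over the members. Of the Rps27a windows 57% occur in transcripts of other genes.

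Other genes of translation were counted from lists chosen for this purpose. In the tumor 24 of 25 ribosome biogenesis genes were called higher and 1 lower (median log2 difference 1.44), and 11 of 16 genes with a TOP element that are not ribosomal proteins were called higher and 4 lower (median 0.49). The 77 mitochondrial ribosomal protein genes went the other way, with 61 called lower and 3 higher in the tumor (median -0.43). In heart 51 of the 77 were called higher and 3 lower (median 0.54), while 69 of the cytosolic members were called lower there. In lung 76 of the 77 were called lower and 0 higher (median -1.18). Of all genes 38.6% were called higher and 47.4% lower in the tumor, 27.7% and 50.2% in heart, and 34.1% and 45.9% in lung. On the FPKM scale the cytosolic and the mitochondrial ribosomal protein genes thus differed in opposite directions in the tumor and in heart. Values of these lists on the TPM scale, on which the median of all genes moved in both tissues, are not reported here.

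To separate the make-up of the set from its level, each member was also expressed relative to the median of the core members of its own library, which removes any factor common to a library. On this relative scale the tissue means of a member spanned a median of 0.54 log2 units, with 38 members under 0.5, 36 between 0.5 and 1, 12 over 1 and 3 over 2. An F test over the tissues called 77 of the 86 members, but it called 99% of all genes, so the call itself does not set these genes apart. The 9 members not called were Rpl4, Rpl14, Rpl26, Rpl29, Rpl31, Rpl32l, Rpl37, Rpl38 and Rpl39. Rpl4, a large-subunit protein lining the exit tunnel, was between 0.94 and 1.26 above the core median in each of the 6 tissues. Rpl3l led the 12 with a span of 8.59 log2 units, followed by Rps4l with 3.84, Rpl22l1 with 2.19, Rps27l with 1.90, Rps27a with 1.84, Rpl3 with 1.73 and Rps2 with 1.49. All 5 like genes were among the 12.

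**Figure D2:**
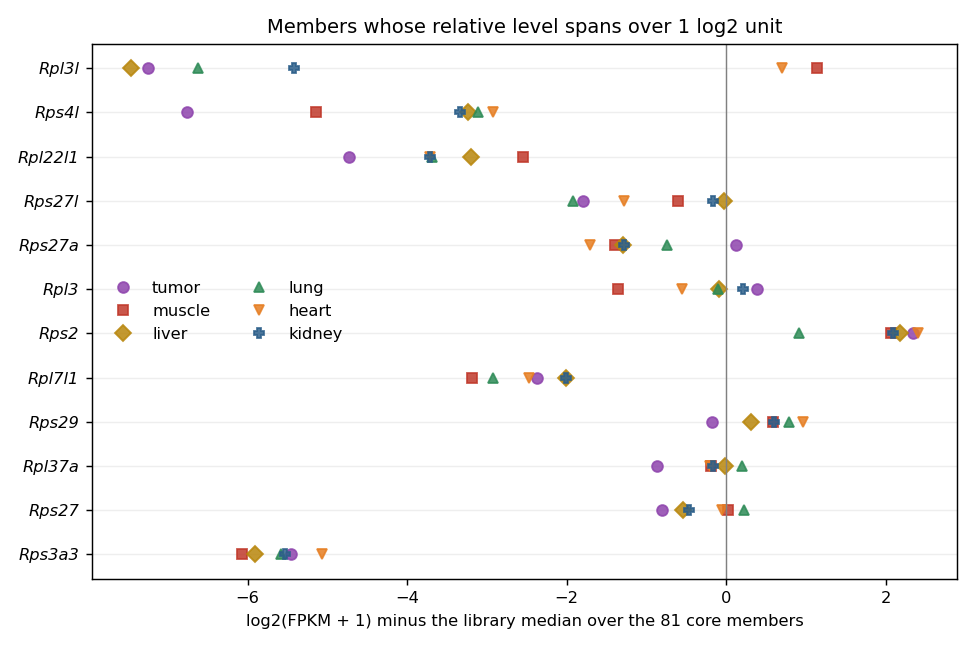
Relative level of the 12 members whose tissue means span over 1 log2 unit; the x axis is log2(FPKM + 1) minus the library's median over the 81 core members, averaged over the 6 libraries of a tissue, and symbols are tissues. Rpl3l lies at 1.13 in muscle and 0.70 in heart and between -7.46 and -5.42 in the other 4 tissues, and Rps2 lies at 0.91 in lung and between 2.06 and 2.40 elsewhere.

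Rpl3l, the striated-muscle counterpart of Rpl3, was the most tissue-bound member. It had 179.7, 197.6 and 188.9 FPKM in the ICB hearts and 187.5, 176.5 and 195.2 FPKM in the IgG hearts. In muscle it had 477.1, 443.1 and 356.7 FPKM with ICB and 417.7, 537.9 and 488.7 FPKM with IgG. All 12 libraries of heart and muscle lay above 170 FPKM, and no library of another tissue exceeded 2.61 FPKM.

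In kidney Rpl3l had 1.22 to 2.61 FPKM, from 45 to 117 reads. In lung it had 0.148 to 0.822 FPKM, and in liver 0, 5 and 0 reads with ICB and 1, 0 and 1 with IgG. In the tumor it had 0.0158 to 0.386 FPKM in 5 libraries and 1.12 FPKM, from 68 reads, in ICB replicate 2, the library with the skeletal muscle markers. The log2 difference from the mean of the other tissues was 6.82 ± 0.11 for muscle and 5.31 ± 0.11 for heart (adjusted p = 1.35e-28 and 6.26e-26). These differences are on the log2(FPKM + 1) scale, which understates folds over tissues near 0.

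Rpl3 itself was lower where Rpl3l was high. Rpl3 had 66.7 to 89.2 FPKM in heart and 56.6 to 102.5 FPKM in muscle, against 104.6 to 300.6 FPKM over the libraries of the other 4 tissues. Its log2 difference from the mean of the other tissues was -0.87 ± 0.10 in heart and -0.84 ± 0.10 in muscle (adjusted p = 8.97e-09 and 1.74e-08). Relative to the other members of its library, Rpl3 was at -0.36 ± 0.10 in heart and -1.32 ± 0.10 in muscle (adjusted p = 0.00381 and 2.25e-13). As a share of the summed FPKM of both genes, Rpl3l made up 70.6% ± 2.0 in heart and 84.8% ± 2.5 in muscle (SD, n = 6 each), with 67.8% to 73.9% in heart and 82.7% to 89.4% in muscle, which do not overlap. The share was 1.29% ± 0.41 in kidney, 0.339% ± 0.209 in lung, 0.146% ± 0.140 in the tumor and 0.0424% ± 0.0735 in liver. The sum of both genes was 265.8 ± 13.4 FPKM in heart and 534.4 ± 70.2 FPKM in muscle. The muscle sum is above the 267.0 ± 26.0 FPKM of the tumor, where Rpl3 stands almost alone. Rpl3l shares no 50-base window with another gene, while 85.6% of the windows of Rpl3 occur in other transcripts, so the Rpl3 level is the less certain of the pair.

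The elongation factor Eef1a, which delivers transfer RNA to the ribosome, has a striated-muscle counterpart of its own, and its share was divided between the same tissues. Eef1a2 made up 65.6% ± 2.0 of Eef1a2 plus Eef1a1 in heart and 65.5% ± 4.6 in muscle (n = 6 each), and at most 0.319% in any library of the other 4 tissues. Eef1a1 was lower than the mean of the other tissues by -1.76 ± 0.09 in heart and -0.91 ± 0.09 in muscle (log2).

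**Figure D3:**
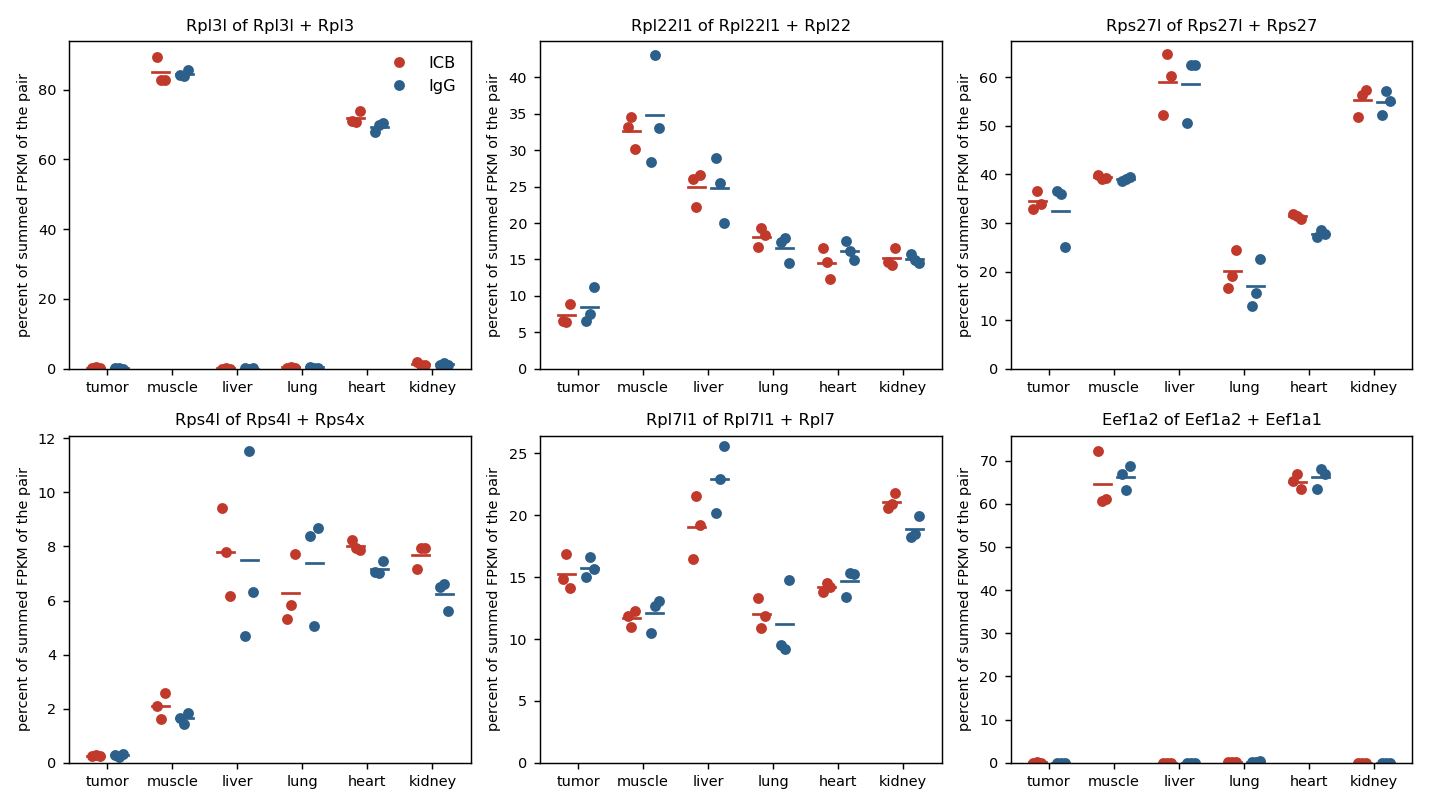
Share of each like gene in the summed FPKM of its pair, in percent, for every library (points), with group means of 3 (bars) and ICB left of IgG; the lower right panel gives the elongation factor pair for comparison. Rpl3l and Eef1a2 exceed 60% in heart and muscle and stay near 0 elsewhere. The pairs of Rpl22l1, Rps27l and Rpl7l1 are divided in every tissue, and Rps4l is at 0.270% in the tumor and 1.87% to 7.65% in the organs.

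Rpl22l1, a counterpart of the RNA-binding protein Rpl22, was highest in muscle, at 29.9, 38.9 and 27.3 FPKM with ICB and 24.8, 50.3 and 40.8 FPKM with IgG, and lowest in the tumor, at 4.89 to 10.1 FPKM over its 6 libraries. Its share of the pair was 33.8% ± 5.1 in muscle, 24.9% ± 3.2 in liver, 17.3% ± 1.6 in lung, 15.4% ± 1.8 in heart, 15.1% ± 0.9 in kidney and 7.86% ± 1.88 in the tumor (SD, n = 6 each). The log2 difference of muscle from the other tissues was 1.75 ± 0.16 on the FPKM scale (adjusted p = 3.34e-11) and 1.26 ± 0.11 on the relative scale. Against the mean of the organs the tumor was at -0.88 ± 0.16 on the FPKM scale (adjusted p = 7.08e-06) but at 0.13 on the TPM scale. Of the Rpl22l1 windows 57.3% occur in transcripts of other genes, against 5.2% of those of Rpl22. Here the like gene has the less certain level of the pair.

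Rps27l, a counterpart of Rps27 and a known target of p53, was highest in liver at 153 to 237 FPKM and lowest in lung at 25.4 to 50.3 FPKM. By the listed FPKM it was the larger partner in 2 tissues, with 58.9% ± 6.0 of the pair in liver and 55.1% ± 2.5 in kidney. The share was 39.3% ± 0.4 in muscle, 33.5% ± 4.4 in the tumor, 29.6% ± 2.1 in heart and 18.5% ± 4.4 in lung. Of the Rps27 windows 63.1% occur in transcripts of other genes, against 13.7% of those of Rps27l. The Rps27 level is thus the less certain of the pair, and so is which partner is larger. Of 10 other p53 targets, 6 were called higher and 3 lower in muscle (median log2 difference 0.79), where 31% and 49.8% of all genes were. In liver 1 was called higher and 7 lower (median -0.37), against 34% and 47.6% of all genes. The cell cycle inhibitor Cdkn1a, for example, had a median of 2.96 FPKM in liver and 56.0 FPKM in muscle. Rps27l itself was called higher in both tissues, by 1.44 ± 0.13 in liver and 0.92 ± 0.13 in muscle (log2, SE, limma adjusted p = 2.10e-11 and 1.65e-07). Counts of the p53 targets in kidney and lung are not reported here, and the part of p53 in the Rps27l level was not tested.

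Rps4l, annotated as a transcribed pseudogene related to Rps4x, was lowest in the tumor, at 0.772, 1.09 and 0.902 FPKM with ICB and 0.862, 0.611 and 1.16 FPKM with IgG. It had 3.69 to 6.38 FPKM in muscle, 7.77 to 13.7 in kidney, 10.7 to 20.7 in lung, 12.7 to 16.4 in heart and 10.98 to 36.3 FPKM in liver. Its share of the pair was 0.270% ± 0.038 in the tumor, 1.87% ± 0.41 in muscle and 6.83% to 7.65% on average in the other 4 organs (SD, n = 6 each). On the FPKM scale Rps4l was the 1 member called higher in heart than in muscle, by 1.39 ± 0.20 (log2, adjusted p = 1.11e-06), where 77 members were called lower (25.3% of all genes were called higher and 27% lower). On the relative scale further members were called in both directions, such as Rpl3 at 0.80 ± 0.14 and Rpl22l1 at -1.17 ± 0.15. Rpl7l1, related to Rpl7 and known for a role in ribosome assembly, made up 21.0% ± 3.2 of its pair in liver and 19.99% ± 1.38 in kidney, against 11.9% ± 1.0 in muscle and 11.6% ± 2.2 in lung. Other genes share 72.2% of the windows of Rps4x and 53.3% of those of Rpl7, against 14.9% for Rps4l and 9.0% for Rpl7l1. The partner's level is thus the less certain in both pairs.

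Among the core members, Rps2, a protein at the entry of the messenger RNA channel, was lower in lung than in any other tissue. Rps2 had 279, 330.2 and 289.8 FPKM in ICB lungs and 190.1, 314.9 and 188.4 FPKM in IgG lungs, and all other tissues lay between 415 and 1216 FPKM. The difference of lung was -1.51 ± 0.11 (log2, adjusted p = 6.28e-13) on the FPKM scale. On the relative scale, Rps27, Rps19 and Rpl21 were higher in lung, by 0.59 ± 0.11, 0.62 ± 0.08 and 0.54 ± 0.10, and Rpl10, next to the P site, was higher in liver by 0.60 ± 0.08. Rps25 was higher in muscle by 0.52 ± 0.08 and Rps13 higher in heart by 0.67 ± 0.08. Each of these 6 passed the adjusted threshold in its tissue. Among the core members of the 12 with a span over 1, Rps29, Rpl37a and Rps27 were lowest in the tumor, at -0.18, -0.87 and -0.81 relative to the core median. Rps27a and Rpl3 were highest there, at 0.12 and 0.38.

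The second comparison was between ICB and IgG within each tissue. No member was called in any of the 6 tissues by limma, and 0 were called by limma-voom on read numbers recovered from the FPKM values. Unadjusted p-values under 0.05 were met by 8 of 83 tested members in the tumor (6.87% of all genes tested there), 6 of 85 in kidney (3.71%), 1 of 85 in muscle (5.33%), 1 of 85 in lung (4.35%), 1 of 84 in heart (4.54%) and 0 of 84 in liver (3.37%). Adjusted calls were made for 0.0168% of all genes in kidney and 0% in the other tissues. The differences between tissues were tested as well, and an F test of the interaction called 0 members (0.0868% of all 16123 genes). An unadjusted p under 0.05 in this test was met by 0 members and 6.2% of all genes.

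**Figure D4:**
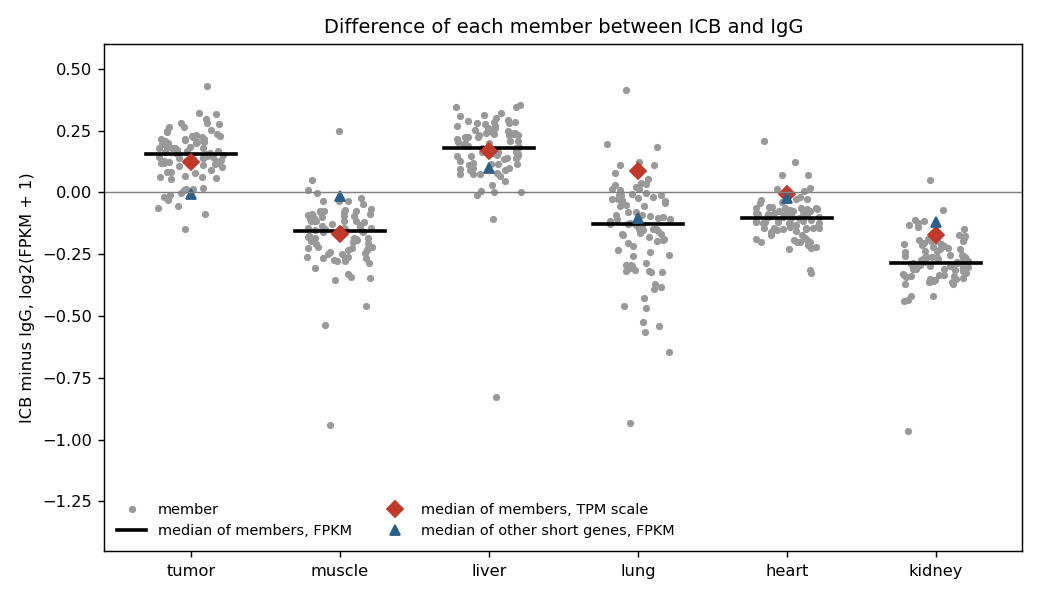
Difference between ICB and IgG for each tested member (grey points) in log2(FPKM + 1), by tissue, with the median of the members (black bar), their median on the TPM scale (diamond) and the median of other genes of at most 1659 bases (triangle). Members are mostly above 0 in tumor (median 0.16) and liver (0.18) and below 0 in the other tissues, and the TPM medians lie on the other side of 0 in lung and close to 0 in heart.

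The members leaned together in each tissue without passing a test. In the tumor 75 of 83 were higher with ICB (median log2 difference 0.16, where 48.2% of all genes were higher), and in liver 80 of 84 (median 0.18, 45.6% of all genes). In kidney 84 of 85 were lower with ICB (median -0.28, where 55.1% of all genes were lower), in muscle 82 of 85 (median -0.16, 49.4%), in lung 70 of 85 (median -0.13, 52.4%) and in heart 77 of 84 (median -0.10, 48.7%). On the TPM scale the lung median was 0.09, with 59 of 85 higher, and the heart median was -0.0047, so the direction in these 2 tissues depended on the scale. Averaged over the 5 organs, 79 of 83 members were lower (59.3% of all genes were lower), with a median of -0.10, or -0.02 on the TPM scale, and 0 were called by limma (0.258% of all genes) or limma-voom. An unadjusted p under 0.05 was met there by 2 of the 83 members and 8.9% of all genes.

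Some marker sums also had separate groups in the organs, others overlapped, and not every list is given. Macrophage markers overlapped in liver (435.8 to 1281 FPKM with ICB, 338.8 to 542.6 with IgG) and T cell markers in lung (29.4 to 45.2 and 15.2 to 37.9). Proliferation markers were separate in lung, at 4.40 to 6.58 FPKM with ICB and 2.21 to 3.37 FPKM with IgG. In kidney all 7 macrophage markers were higher with ICB, summing to 64.7 to 129.4 FPKM, against 53.9 to 58.0 FPKM with IgG, and T cell markers summed to 2.11 to 2.94 and 1.16 to 1.80 FPKM. All 5 erythroid markers were lower with ICB in kidney, lung, muscle and heart, and their sums did not overlap in kidney, muscle (283.7 to 876.9 with ICB, 977.9 to 1517 FPKM with IgG) and heart. In lung the erythroid sums were 346.3 to 2113 FPKM with ICB and 1577 to 15640 FPKM with IgG. All 5 lung markers were lower with ICB there, at 19910 to 30930 FPKM against 33730 to 54690 FPKM with IgG, and all 7 macrophage markers were higher, at 205.2 to 244.1 against 138.2 to 153.1 FPKM. In liver T cell markers summed to 3.14 to 6.50 FPKM with ICB and 1.48 to 2.14 FPKM with IgG. None of these markers that passed the filter was called, and their part in the members' differences was not tested.

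In the tumor every ICB library was above every IgG library for 21 members, against 5.65% of all genes. The members share their libraries, so these 21 are not independent of each other. Rpl5, which with Rpl11 binds the 5S RNA, had 192.5, 196.2 and 194.3 FPKM with ICB, against 156.1, 159.0 and 169.7 FPKM with IgG (0.27 ± 0.09, SE, adjusted p = 0.697). Rpl4 had 504.6, 544.8 and 536.4 FPKM with ICB, against 421.1, 392.3 and 457.3 FPKM with IgG (0.32 ± 0.10, adjusted p = 0.697). Rpl13a, a member listed at low levels, had 8.89, 11.3 and 10.1 FPKM with ICB, against 6.74, 8.39 and 6.62 FPKM with IgG (0.43 ± 0.13, adjusted p = 0.692). These 3 had the smallest p-values among the members in the tumor, and their groups did not overlap. Of the 16 other TOP genes, all 16 were higher in the ICB tumors (median 0.20), as were 22 of 25 ribosome biogenesis genes (median 0.16), against 48.2% of all genes. None of either list was called. These genes share their libraries with each other and with the members, so their counts are not independent either. Proliferation markers summed to 140.9 to 154.6 FPKM in the ICB tumors and 116.5 to 144.7 FPKM in the IgG tumors, macrophage markers to 283.9 to 448.7 and 241.7 to 694.6 FPKM, T cell markers to 4.71 to 9.24 and 5.10 to 6.48 FPKM, and the part of any of these in the members' levels was not tested.

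In kidney, muscle and liver the member with the largest difference was Rps27a. In kidney it had 28.9, 19.7 and 60.9 FPKM with ICB, against 62.7, 104.4 and 41.3 FPKM with IgG (-0.97 ± 0.43, adjusted p = 0.992). In muscle it had 97.3, 47.7 and 36.2 FPKM with ICB, against 96.9, 115.8 and 109.1 FPKM with IgG (-0.94 ± 0.34, adjusted p = 0.876). In liver it had 80.3, 32.2 and 66.4 FPKM with ICB, against 130.8, 143.6 and 52.4 FPKM with IgG (-0.83 ± 0.46, adjusted p = 0.999). The groups overlapped in each of these organs. In lung the difference was -0.12 ± 0.36 and in heart -0.04 ± 0.22, and in the tumor it was 0.18 ± 0.09, with 240.4, 242.1 and 228.2 FPKM against 210.0, 211.1 and 205.9 FPKM. Over the 5 organs Rps27a had the smallest p-value of the members, at -0.58 ± 0.18 (adjusted p = 0.1999).

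Outside the tumor few members had separate groups. In kidney every ICB library was below every IgG library for 6 members (5.22% of all genes), among them Rpl22 at 40.0, 36.7 and 38.6 FPKM with ICB, against 44.0, 56.7 and 46.7 FPKM with IgG (-0.34 ± 0.12, adjusted p = 0.992). Groups were separate for 2 members lower with ICB in muscle (5.62% of all genes), 2 in heart (4.97%), 1 in lung (4.14%) and 0 in liver (3.58%). The 1 in lung was Rps29, at 149.7, 230.3 and 144.3 FPKM with ICB, against 414.6, 346.3 and 243.9 FPKM with IgG (-0.93 ± 0.29, adjusted p = 0.989), in the organ whose lung and macrophage marker sums were also separate. In heart Rpl10 had 85.1, 93.4 and 86.4 FPKM with ICB, against 113.2, 98.2 and 96.5 FPKM with IgG (-0.21 ± 0.10, adjusted p = 0.997).

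The shares of the like genes in their pairs, which do not depend on a library's scale, were compared for 5 pairs in 6 tissues. In 25 of these 30 comparisons ICB and IgG overlapped, and in the other 5 the share was higher in every ICB library. These 5 lie in heart and kidney, where the pairs share their libraries, so they are not independent of each other. A matching share over pairs of other genes was not computed. In heart Rps27l made up 31.9%, 31.5% and 30.9% of its pair with ICB, against 27.1%, 28.7% and 27.7% with IgG, a difference of 3.63 percentage points. In heart Rpl3l made up 71.1%, 70.6% and 73.9% with ICB, against 67.8%, 69.9% and 70.4% with IgG, and the Rps4l share was 8.01% ± 0.20 with ICB and 7.18% ± 0.25 with IgG (SD, n = 3 each). In kidney the share of Rps4l was 7.67% ± 0.45 with ICB and 6.24% ± 0.54 with IgG, and that of Rpl7l1 21.1% ± 0.6 and 18.9% ± 0.9. With 3 libraries against 3 an exact two-sided permutation test cannot give a p below 0.1, so none of these differences can pass. A pair without a difference has separate groups, in either direction, with that same probability of 0.1. Erythroid markers also had separate groups in these 2 organs, at 413.6 to 549.4 FPKM with ICB and 748.6 to 3884 FPKM with IgG in heart and at 212 to 349 and 497 to 693 FPKM in kidney, and their part in the shares was not tested.

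The members' differences between ICB and IgG were set beside the spread within groups, since in some libraries nearly all members departed from the group together. ICB replicate 1 of the liver was the highest of its 3 for 83 of 84 members, with a median 0.84 log2 units above the other 2, and ICB replicate 2 was the lowest for 83, at -0.91. In kidney, IgG replicate 2 was the highest of its 3 for 83 of 85 members, at 0.58. In lung, IgG replicate 3 was the lowest for 82 of 85, at -0.82. In 18 of the 36 libraries at least 60 members shared the highest or the lowest place, and in 21 the median departure was at least 0.2 log2 units. Each of these 4 departures exceeds the members' median difference between ICB and IgG in the same tissue.

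The common departure was not confined to ribosomal proteins. In all 21 libraries with a departure of at least 0.2, other genes of at most 1659 bases (the median length of the core members, as implied by the FPKM values) and the mitochondrial ribosomal protein genes departed in the same direction. Over all 36 libraries this held in 31 for the short genes and in 29 for the mitochondrial ribosomal protein genes. Other genes over 2000 bases departed in that direction in 5 of the 21. The members themselves had implied lengths of 399 to 6271 bases, so they are not all short genes, and they were not divided by length here. Between ICB and IgG the short genes had a median of 0.10 in liver, -0.01 in the tumor, -0.02 in muscle, -0.02 in heart, -0.10 in lung and -0.12 in kidney. The members' medians of 0.16 in the tumor, -0.16 in muscle and -0.10 in heart thus stood beside short genes near 0. What moves short genes together between libraries was not tested.

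**Figure D5:**
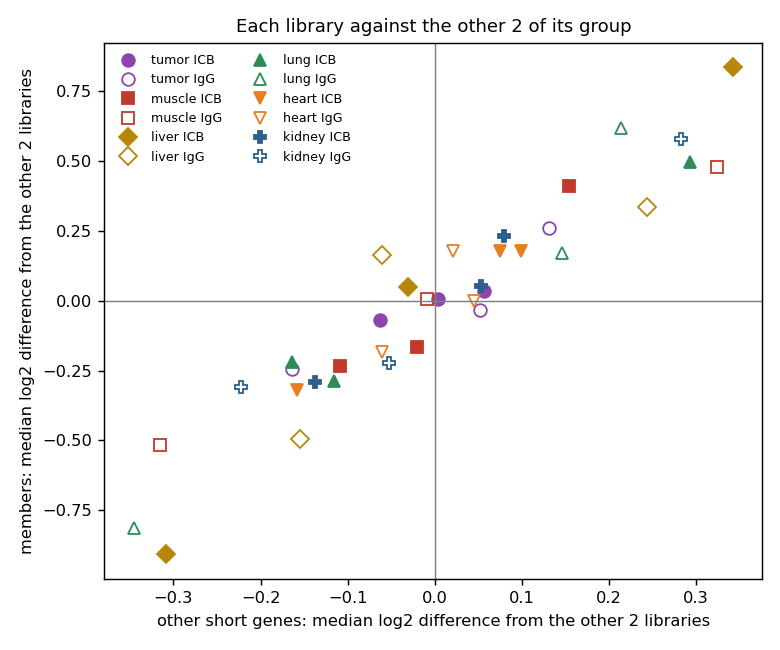
Departure of each library from the other 2 of its group: median over the members (y axis) against the median over other short genes (x axis), both in log2 units; filled symbols are ICB and open symbols IgG. The 21 libraries whose members depart by at least 0.2 lie in the lower left and upper right, with liver ICB replicates 1 and 2 at 0.84 and -0.91 at the ends.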

How the data were processed

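The measurement was bulk RNA sequencing of 36 libraries. Values are FPKM, which the authors computed and deposited as 1 table. Per the submitters' processing notes, alignment used HISAT2 2.1.0 and the mm10 genome, and edgeR is named too. What counted the reads, with which annotation and strand setting, is not given in the sources used here. Dividing out the step of 1 read returned whole numbers for 18781 of 18781 rows (tolerance 0.001 reads), with 19005189 to 25512980 reads per library and implied normalization factors of 0.532 to 1.595. After removal of 15 unnamed rows (0.0834% to 0.374% of reads) and of 3 symbols that name 2 rows each, 18760 were used.

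log2(FPKM + 1) was fitted with limma (mean-variance trend, two-sided, Benjamini-Hochberg threshold 0.05). Within a tissue, genes needed an FPKM of at least 1 in 3 of 6 libraries, and 83 to 85 members passed. For tissues, 12 group means were fitted over genes passing in any tissue, and the organ average used genes passing in each organ. The members, lists and tests were chosen with earlier results of these data known. Named genes were the 5 largest called differences per tissue and direction, the 3 smallest p-values per direction for ICB, the like genes and partners, Rplp0, Rplp1, Rplp2, Rpsa and Rps27a; not all are printed, and some are not reported here. Rpl8, Rpl36 and members singled out for a low level, a span over 1, no call or separate groups were chosen after their values were seen. Simulated data with known changes were used to test the fits. Alternatives were TPM scale, median-of-ratios scaling, scaling to the core members, pseudocount 0.1, no filter, no trend, 1 fit of all 36 libraries, a replicate block, each treatment alone, leaving out each library, and limma-voom on recovered reads, added after the data were seen. None of 36 library pairs within groups was a duplicate. Software was Python 3.11.15 with matplotlib 3.10.9, pandas 2.3.3 and numpy 2.4.6, and limma 3.58.1 in R 4.3.3.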

Additional observations from a re-analysis of the deposited data

How the results depend on the processing

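The 0 calls for ICB minus IgG, in each tissue, over the organs and for the interaction, were 0 under every alternative run, which says nothing about differences too small for 3 libraries against 3. Counts of members called between tissues moved by over 1.5 times as follows, and the cause was not tested. On the TPM scale 2 were called lower in tumor, 80 higher and 3 lower in lung, 2 higher and 83 lower in liver, and 11 higher and 32 lower in muscle. Median-of-ratios scaling gave 1 higher in kidney and 5 higher in lung. The IgG libraries alone gave 1 higher and 30 lower in kidney, 13 lower in lung, 10 higher in liver, 41 lower in heart and 46 called for make-up, against 77. The ICB libraries alone gave 0 higher in kidney and 1 higher and 18 lower in lung. Leaving out 1 library at a time gave 1 to 2 higher in kidney, 1 to 6 higher and 14 to 44 lower in lung, and 20 to 60 higher and 1 to 2 lower in liver. Fewer libraries enter each of these fits.

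Sign changes of named members under the TPM scale gave, against the other tissues, Rpl22l1 0.13 and Rps27l 0.58 in tumor, Rpl7l1 0.12 and Rplp0 0.17 in lung, and Rpl10 -0.18, Rpl7l1 -0.17 and Rpl22l1 -0.23 in liver. For ICB minus IgG, none of it called, scaling to the core members gave 0.013 for Rpl22l1 in kidney. Leaving out 1 library at a time gave -0.14 to 0.0017 for Rpl29 and -0.22 to 0.067 for Rpl39 in tumor, -0.11 to 0.26 for Rps4l in kidney, -0.061 to 0.46 for Rpsa in lung, -0.20 to 0.030 for Rpl7l1 and -0.38 to 0.28 for Rps29 in liver, -0.0050 to 0.085 for Rpl13a in muscle, and -0.0087 to 0.16 for Rps4l and -0.0070 to 0.40 for Rps3a2 in heart. In 47 further cases a named member lost its call with its direction kept.

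Numbers in the sample titles recur between tissues but not between ICB and IgG of a tissue. Libraries of the same number had a median correlation of 0.15 over 56 pairs (lowest -0.29, 39 over 0.1), and 58.3% of the libraries correlated best with their own number. Pairs of different number had a median of -0.039 over 214 pairs (lowest -0.59, 48 over 0.1). With the number as a replicate block, 61 members were called higher and 5 lower in tumor, 6 higher and 22 lower in lung, 32 higher in liver, 49 higher in muscle, 71 lower in kidney and 71 lower in heart, 78 lower in heart than in muscle, 72 for make-up and 0 for ICB over the organs or the interaction.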
